A study of Mus musculus and synthetic construct with 3 samples.

Results

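The hexagons described here are small areas of aneurysmal aorta in which the transcript of Gpnmb was captured. In Seq-Scope a section is laid on an array whose barcodes record where each RNA was caught, and the unique molecular identifiers (UMIs) of exonic transcripts were summed in hexagons with 12 μm sides. A hexagon was kept when it held 50 or more genes, after mitochondrial (mt) genes and Gm gene models had been dropped, and it was called a Gpnmb hexagon when it held at least 1 Gpnmb UMI. Of 10197 kept hexagons in the sections of abdominal aortic aneurysm (AAA), 592 were Gpnmb hexagons, 257 in AAA mouse 1, 152 in AAA mouse 2 and 183 in AAA mouse 3. They were set beside 1357 hexagons of the same mice with a Ctsb or Lyz2 UMI and no Gpnmb, called Ctsb or Lyz2 hexagons, and 8248 hexagons with none of the 3 genes. A hexagon can hold parts of several cells, so it is an area and not a cell.

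All mice were male Apoe-/- animals on a normal diet, aged 16 weeks by the labels, with minipumps that gave angiotensin II (AngII) or saline for 4 weeks. Lack of Apoe was therefore shared by both conditions. The study had 5 mice in each arm, and the suprarenal abdominal aortas of the 3 AngII mice that developed AAA and of 3 saline controls were cut into 10 μm sections, 10 of each condition, which lay on 1 array. The AAA mice are thus those AngII mice in which an aneurysm formed, and not the whole AngII arm. Sections were assigned to mice by their position along the array, read against the section outlines of the study with a residual SD of 168 μm over 40 edges. In all, the 20 sections gave 11679 kept hexagons, 1482 of them from controls.

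Gpnmb encodes a transmembrane glycoprotein of lysosomes and the cell surface that is made by macrophages loaded with lipid or debris, and its outer part can be shed by ADAM10. Macrophages that take up lipid and dead cells depend on lysosomes, where cathepsins cut proteins and saposins help to break down sphingolipids. In an aneurysm such cells lie in a wall that is losing elastic fibers and contractile smooth muscle cells.

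Gpnmb lies on chromosome 6 (GRCm38, chr6:49036546-49070929, plus strand) and codes for protein. The values of Gpnmb itself chose the hexagons and are given as a description. Of the 592 Gpnmb hexagons, 479 (80.9%) held 1 Gpnmb UMI, 87 held 2 and 26 held 3 or more, with a highest value of 5. Most members were thus called on a single molecule. Just below the limit of 50 genes, 68 of 1856 AAA hexagons with 45 to 49 genes (3.66%) held Gpnmb, and just above it 72 of 1586 hexagons with 50 to 54 genes (4.54%) did.

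The depth of the Gpnmb hexagons was similar to that of Ctsb or Lyz2 hexagons and above that of the rest. The median UMIs per hexagon were 91, 86 and 78 in the Gpnmb hexagons of AAA mice 1, 2 and 3. They were 95, 90 and 73 in Ctsb or Lyz2 hexagons and 77, 76 and 70 in hexagons with none of the 3. Levels below are therefore given as UMIs per 10000 UMIs of the summed hexagons of a mouse, with Gpnmb, Ctsb and Lyz2 left out of the total. For Gpnmb itself the total was all UMIs, and for Ctsb and Lyz2 all UMIs but those of Gpnmb. In the comparison of hexagons near and far from Gpnmb hexagons, Gpnmb alone was left out. Since UMIs were summed over hexagons, more cells of a type and more RNA per cell cannot be told apart.

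**Figure D1:**
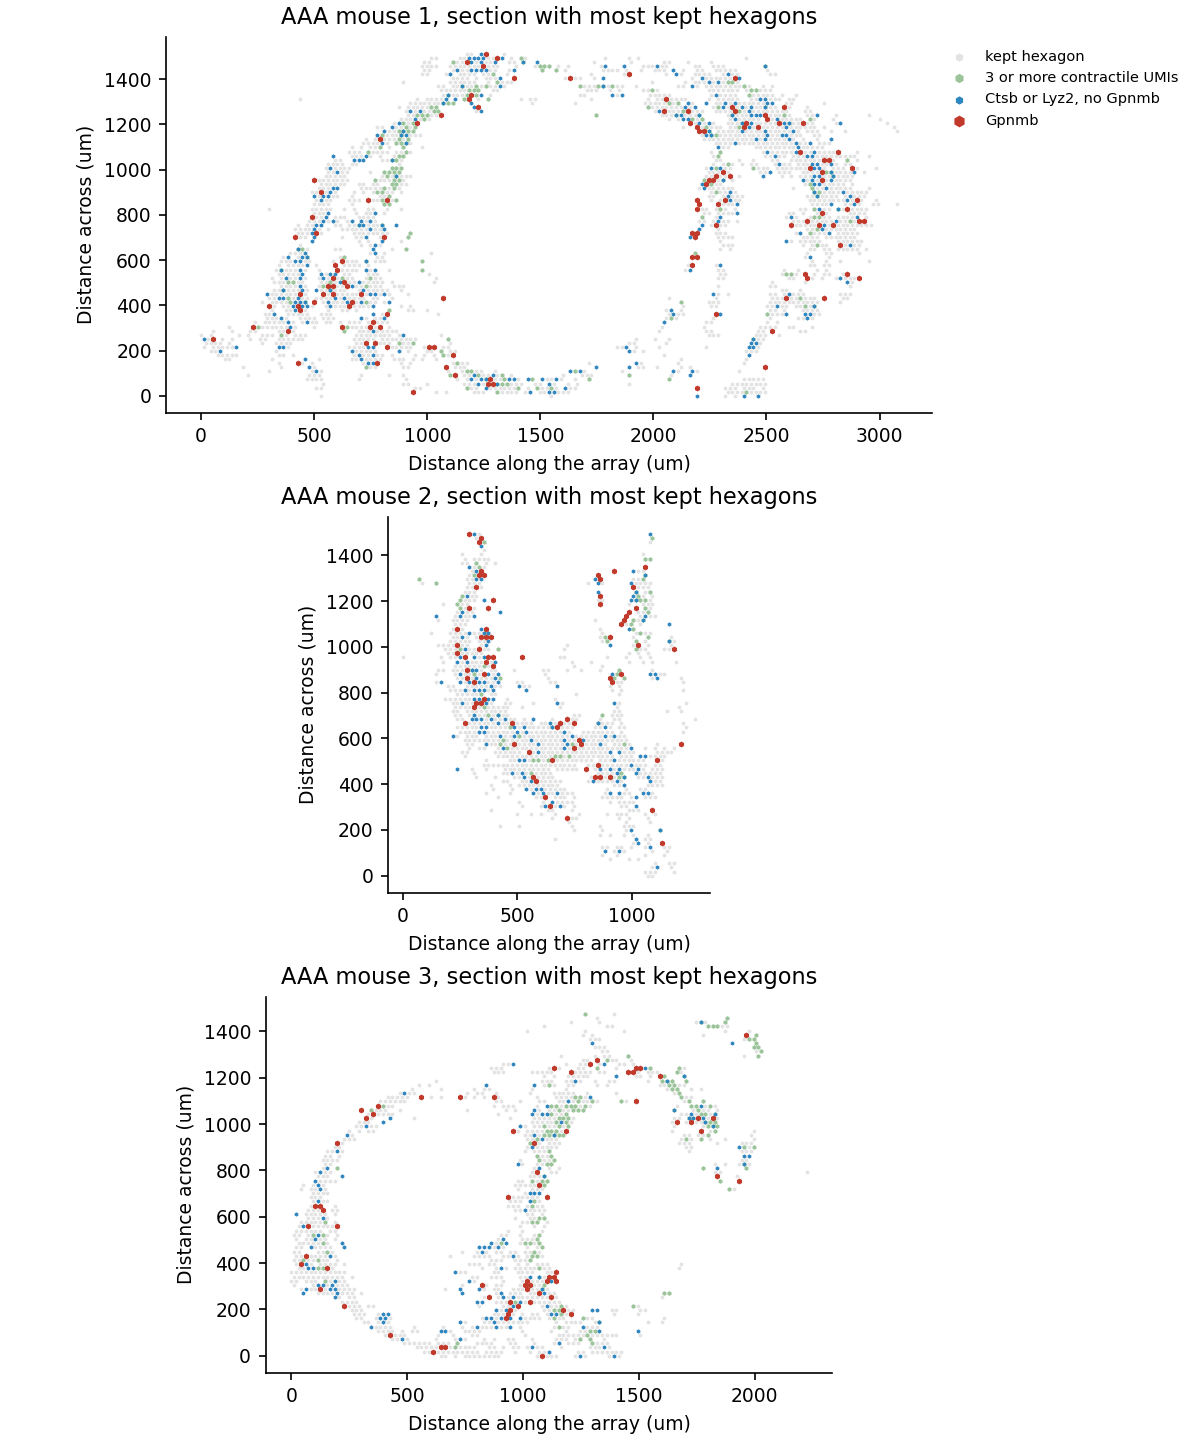
Kept hexagons of the section with most kept hexagons in each of the 3 AAA mice, drawn to scale in μm along and across the array. Gray marks kept hexagons, green those with 3 or more UMIs of contractile markers, blue Ctsb or Lyz2 hexagons and red Gpnmb hexagons, which lie both singly and in small groups.

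Gpnmb hexagons were partly grouped in the tissue. With a link between members whose centers lay within 45 μm, the distance limit the study used for cell pairs, 50.6% of members in AAA mouse 1, 31.6% in mouse 2 and 42.6% in mouse 3 had no other member near them. Groups of 3 or more held 26.8%, 48.7% and 48.6% of members, and the largest group had 9, 17 and 19 hexagons. The share of Gpnmb hexagons with another Gpnmb hexagon within 45 μm was 49.4%, 68.4% and 57.4%, against 34.7%, 38.8% and 33.8% of hexagons with none of the 3. All 3 mice showed the higher share in Gpnmb hexagons, but the comparison uses Gpnmb on both sides and is a description, as is the map of hexagons by section.

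In the marker check the Gpnmb hexagons carried macrophage markers, within mixed tissue. Of 18 macrophage markers other than Ctsb and Lyz2, 16 had a UMI in the members, and Cd163 and Cd14 were at 0. Their summed level was 52.8, 78.9 and 53.4 UMIs per 10000 in Gpnmb hexagons of AAA mice 1, 2 and 3, 47.5, 52.0 and 42.0 in Ctsb or Lyz2 hexagons, and 32.1, 33.2 and 35.5 in hexagons with none of the 3. In this sum Gpnmb hexagons were above both other classes in each mouse. Much of the sum came from Cd5l, Lgals3, Ctss and C1qc, which are among the called genes below. The study also lists them as markers of its Gpnmb-high macrophage cluster, found on the same array. The sum is therefore a description and no separate support. Other markers did not keep 1 direction against Ctsb or Lyz2 hexagons. Csf1r was at 0.347, 2.63 and 3.07 against 2.61, 1.80 and 1.57, and Laptm5 at 2.78, 1.31 and 1.84 against 2.16, 3.97 and 3.14. At least 1 of the 18 markers was seen in 33.9%, 43.4% and 35.0% of Gpnmb hexagons, against 33.5%, 33.6% and 24.8% of Ctsb or Lyz2 hexagons and 23.1%, 23% and 21.5% of hexagons with none of the 3. In AAA mouse 1 the share was thus close to that of Ctsb or Lyz2 hexagons. A macrophage marker beside Gpnmb was therefore captured in 33.9% to 43.4% of members, and macrophage hexagon is a name for the class and not for each area.

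Ctsb and Lyz2, the other genes of the rule, encode the lysosomal protease cathepsin B and the macrophage lysozyme. Gpnmb hexagons were not chosen by them, and 94 of the 592 held Ctsb, 85 held Lyz2 and 156 (26.4%) held at least 1 of the pair. The level of Ctsb was 19.7, 41.8 and 20.8 UMIs per 10000 in the Gpnmb hexagons of AAA mice 1, 2 and 3 and 10.8, 11.9 and 11.7 in all hexagons without Gpnmb. The level of Lyz2 was 12.1, 32.0 and 18.3 against 9.31, 8.72 and 8.39. Both genes were higher in Gpnmb hexagons in 3 of 3 mice, by 1.17 ± 0.56 (SD, n = 3) on the log2 scale for Ctsb and 1.13 ± 0.75 for Lyz2. These values are a description, since both genes belong to the rule. Thinned to 50 UMIs per hexagon, 7.55%, 16.1% and 6.88% of Gpnmb hexagons held Ctsb against 4.57%, 5.54% and 5.10% of the others, and the unthinned shares were 14.4%, 23% and 12% against 7.97%, 8.95% and 7.24%.

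Markers of other cell types were also captured in Gpnmb hexagons. The 10 smooth muscle markers summed to 80.9, 97.3 and 146 UMIs per 10000 in Gpnmb hexagons and 97.8, 84.4 and 132 in hexagons with none of the 3, and of these markers Myocd was at 0 in members. The 10 fibroblast markers summed to 164, 113 and 154 against 178, 137 and 180, and the 7 adipocyte markers to 67.7, 51.9 and 55.8 against 90.0, 75.2 and 56.6. Fibroblast and adipocyte markers were thus lower in Gpnmb hexagons in all 3 mice. Endothelial markers ran from 4.17 to 6.13, erythrocyte markers from 9.73 to 16.4 and lymphocyte markers from 12.9 to 15.8 in Gpnmb hexagons, where Cd3e, Cd79a and Ms4a1 were at 0. Neutrophil markers were at most 0.695, with Retnlg and Csf3r at 0, and osteoclast markers ran from 1.23 to 5.92, with Dcstamp and Calcr at 0. The part of these cell types in the results below was not tested.

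A transcript known from tissue outside the aorta was also counted in every class. Mptx1, a gene of the small intestine chosen here after its values were seen, was at 54.9, 44.0 and 49.7 UMIs per 10000 in Gpnmb hexagons. It was at 56.3, 62.4 and 55.4 in Ctsb or Lyz2 hexagons and 58.7, 61.4 and 57.7 in hexagons with none of the 3. Where its RNA came from was not tested. Apoe, the gene knocked out in all mice, was counted at 51.4, 40.8 and 42.3 in Gpnmb hexagons, and its log2 fold change against hexagons with none of the 3 was -0.22 (SE 0.12, adjusted p = 0.457 by edgeR). The presence of an Apoe transcript in Apoe-/- mice is a fact of these counts, and its source was not tested.

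Gpnmb was also captured in hexagons rich in other cell types. In AAA sections, 19 of 568 hexagons with 3 or more adipocyte marker UMIs held Gpnmb, 3.35% (exact 95% interval 2.03% to 5.17%), at a median of 105 UMIs, against 5.81% (5.36% to 6.28%) of all kept AAA hexagons at a median of 76. Per 10000 UMIs this was 2.84 against 8.05 Gpnmb UMIs. AAA hexagons with 3 or more contractile marker UMIs held Gpnmb in 6.72% (5.19% to 8.54%), at 7.85 per 10000. The level of the adipocyte-rich hexagons is given as a comparison and not as a measured background, since the source of their Gpnmb was not tested. These intervals cover counting error only.

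The main question was which other genes are higher where Gpnmb is found. Most of the genes found encode lysosomal or macrophage proteins, but some could be tested only through their level in the Gpnmb hexagons. Against hexagons with none of the 3, 12 of 474 tested genes were higher in Gpnmb hexagons at an adjusted p under 0.05 (percent called 2.53) and 0 were lower in edgeR, where 57 genes in either direction passed an unadjusted p of 0.05 (12% of those tested). DESeq2 called 8 higher and 0 lower genes, and 7 of the 8 were among these 12. Lgals3, Mfge8, Ftl1, Ctsz and C1qc did not pass in DESeq2, with adjusted p from 0.0883 to 0.429. The 12 were the lysosomal genes Psap, Ctsd, Ctsl, Ctss and Ctsz, the macrophage genes Cd5l, Lgals3 and C1qc, the lipid carrier Fabp5, the ferritin light chain Ftl1, and Mfge8 and Eln. Of these, Cd5l, Lgals3 and Fabp5 passed the filter on low counts only through the Gpnmb libraries, so their calls are not independent of the filter. Ftl1 has near-identical copies elsewhere in the genome, so its count is uncertain. All 12 were higher in 3 of 3 mice, and in 9 of them the values of the 3 mice did not overlap between the classes. The test on these same values chose the 12 genes, so both counts are a description and no further support. The share of all 474 genes with such agreement was not counted. In 10 of the 12 the highest level was in AAA mouse 2 and in the other 2 in AAA mouse 3.

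Psap, which encodes the precursor of the saposins, was the most abundant of them. Its level was 52.4, 80.9 and 48.4 UMIs per 10000 in Gpnmb hexagons of AAA mice 1, 2 and 3 and 27.2, 27.2 and 32.1 in hexagons with none of the 3. The log2 fold change was 1.03 (SE 0.12, adjusted p = 2.86e-15). Ctsd, the aspartic protease cathepsin D, was at 26.0, 36.8 and 44.8 against 14.5, 16.6 and 20.0, a log2 fold change of 1.02 (SE 0.13, adjusted p = 1.52e-11). For both genes every Gpnmb value lay above every value of the other class. Ctsl, the cysteine protease cathepsin L, was at 8.34, 28.3 and 12.9 against 5.42, 8.39 and 6.50, a log2 fold change of 1.14 (SE 0.19, adjusted p = 2.44e-07). The Ctsl values overlapped between the classes and AAA mouse 2 was the highest in each.

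The largest fold changes belonged to genes of low count. Cd5l, which encodes a scavenger receptor family protein secreted by macrophages, was at 3.47, 17.1 and 7.36 UMIs per 10000 against 1.31, 2.41 and 1.52. Its log2 fold change was 2.19 (SE 0.38, adjusted p = 1.06e-06), on 48 UMIs in Gpnmb hexagons. Fabp5, a carrier of fatty acids, was at 4.17, 9.20 and 5.52 against 1.35, 1.75 and 1.35, a log2 fold change of 1.97 (SE 0.47, adjusted p = 0.00212). The values of both genes were separate between the classes, and the Cd5l level differed widely among the mice. Fabp5 reached the level of the filter on low counts in the Gpnmb libraries alone. Cd5l, and Lgals3 below, reached it in too few libraries without those. These genes could thus be tested only because they were high in Gpnmb hexagons, and their calls are not independent of the filter. With no filter Cd5l was still called, and Fabp5 and Lgals3 were not.

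Of the other called genes, Ctss, the cathepsin S of antigen-presenting cells, had a log2 fold change of 1.22 (SE 0.30, adjusted p = 0.00338), and Lgals3, the galectin-3 gene, one of 1.13 (SE 0.29, adjusted p = 0.00634). Ctsz, a lysosomal carboxypeptidase, differed by 0.84 (SE 0.24), Ftl1 by 0.79 (SE 0.22), C1qc, a chain of complement C1q, by 0.76 (SE 0.22) and Mfge8, a bridge between dying cells and phagocytes, by 0.67 (SE 0.18), all with adjusted p between 0.0163 and 0.0254. Eln, which encodes elastin and is not a macrophage gene, was at 14.6, 19.7 and 35.0 in Gpnmb hexagons and 11.6, 9.19 and 16.2 in the others, a log2 fold change of 0.79 (SE 0.15, adjusted p = 3.01e-05). Its highest value was in AAA mouse 3, and without that mouse its adjusted p was 0.397.

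**Figure D2:**
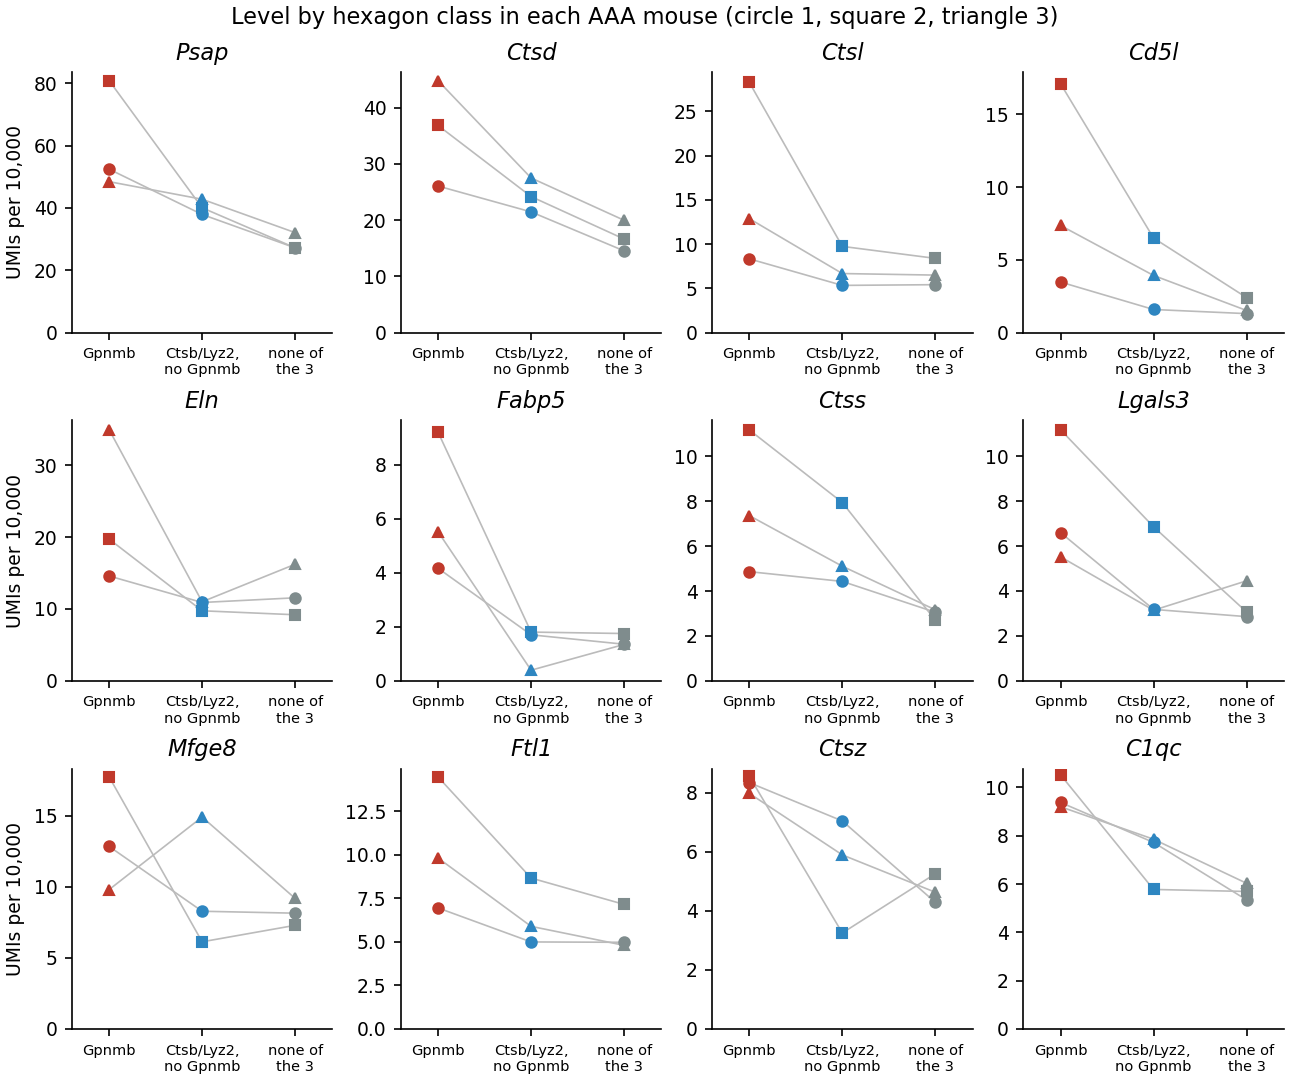
Level (UMIs per 10000) of the 12 genes called higher in Gpnmb hexagons than in hexagons with none of the 3, in each hexagon class and AAA mouse; lines join the classes of 1 mouse. Gpnmb hexagons lie above hexagons with none of the 3 in every mouse for all 12 genes, with the highest member value in AAA mouse 2 for 10 genes and in AAA mouse 3 for Ctsd and Eln. Cd5l, Lgals3 and Fabp5 passed the filter on low counts only through the Gpnmb libraries.

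Cd5l passed the threshold in all 13 other settings, and Psap and Ctsd in 12 of 13, the exception being the fit with no filter on low counts. Without AAA mouse 1, 2 or 3 the number of higher genes fell to 7, 5 and 8. Without AAA mouse 2, Ctsl had an adjusted p of 0.398, Ctss of 0.606, Lgals3 of 0.606, Mfge8 of 0.737 and Ftl1 of 0.606. Ctsz and C1qc lost the call without any mouse, with adjusted p between 0.393 and 0.556 and between 0.330 and 0.482, Fabp5 did without mouse 1 (adjusted p = 0.0849), Lgals3 and Mfge8 without mouse 1 (0.317 and 0.461), and Ctss and Ftl1 without mouse 3 (0.0796 and 0.450).

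Against Ctsb or Lyz2 hexagons, a class that also carries macrophage genes, fewer genes differed. Of 474 genes, 3 were higher in Gpnmb hexagons (percent called 0.633) and 0 were lower in edgeR, and 46 passed an unadjusted p of 0.05 (9.7% of those tested). DESeq2 called 3 higher genes, Ctsl, Eln and Fabp5, and 0 lower. The 3 called by edgeR were Eln, Ctsl and Psap, all of which had also been called against hexagons with none of the 3. The same Gpnmb libraries enter both comparisons, so the calls are not independent.

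Eln was at 10.9, 9.75 and 11 UMIs per 10000 in Ctsb or Lyz2 hexagons, below its level in Gpnmb hexagons in 3 of 3 mice, with a log2 fold change of 0.96 (SE 0.18, adjusted p = 0.000101). Ctsl was at 5.34, 9.75 and 6.68, with a log2 fold change of 1.10 (SE 0.22, adjusted p = 0.000229). Psap was at 37.9, 40.1 and 42.8, with a log2 fold change of 0.56 (SE 0.13, adjusted p = 0.00202). For Psap every Gpnmb hexagon value lay above every value of the Ctsb or Lyz2 class, and for Eln as well.

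Of the 12 genes called in the other comparison, 11 were also higher than in Ctsb or Lyz2 hexagons in 3 of 3 mice, Mfge8 in 2. These genes were chosen on the same Gpnmb libraries, so the count is a description, and the share over all genes tested was not counted. Genes that were not called could show the same agreement. Mgp (log2 fold change 0.17), Fn1 (0.23) and Fth1 (0.31) were also higher in 3 of 3 mice. Fabp5 was at 1.70, 1.80 and 0.393 UMIs per 10000 in Ctsb or Lyz2 hexagons, with a log2 fold change of 1.96 (SE 0.57, adjusted p = 0.0679). Ctsd was at 21.5, 24.2 and 27.5, with 0.50 (SE 0.15, adjusted p = 0.0719), and Cd5l at 1.59, 6.50 and 3.93, with 1.25 (SE 0.41, adjusted p = 0.173). These 3 genes did not pass the threshold in this fit. Fabp5 was called by DESeq2, over whole genes and in the fit of only the 2 classes compared. Cd5l and Ctsd were called on the shifted grid and for members with 2 or more Gpnmb UMIs. On the other side, Cd74, the invariant chain of MHC class II, was lower in Gpnmb hexagons in 3 of 3 mice with a log2 fold change of -0.70 (SE 0.25, adjusted p = 0.223), and Fbln1, a matrix gene of fibroblasts, with -0.73 (SE 0.24, adjusted p = 0.161). Neither passed.

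Each of the 3 calls was lost when a mouse was left out. Without AAA mouse 3 the adjusted p of Eln was 0.695, without AAA mouse 2 that of Ctsl was 0.580, and that of Psap was 0.291 without AAA mouse 1 and 0.705 without AAA mouse 2. Psap was also not called by DESeq2 (adjusted p = 0.243), Eln not over whole genes (0.177) or for members with 2 or more Gpnmb UMIs (0.0858), and Ctsl not in hexagons with 60 to 150 UMIs (0.0633). With no filter on low counts none of the 3 was called. With no mouse block in the fit, 0 genes were called here and 4 against hexagons with none of the 3 (Cd5l, Ctsd, Fabp5 and Psap).

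Gene lists were then described by their counts and summed levels, and of the 12 called genes 5 were in the lysosome list. Of 40 lysosomal genes (cathepsins, other hydrolases and membrane proteins), 16 were tested. Of these, 5 were higher and 0 lower than in hexagons with none of the 3, beside 2.53% of all genes called higher. The median log2 fold change was 0.31 over the 16 beside -0.00085 over all 474 genes. The study's markers of its Gpnmb-high macrophage cluster, found on the same array, already held Psap, Ctsd, Ctsl and Ctss, so the count is no separate support. Against Ctsb or Lyz2 hexagons 2 of the 16 were higher, beside 0.633% of all genes, and the median was 0.25 beside 0.01. The counts of the lists below are to be read beside the same shares. Their summed level was 253, 312 and 264 UMIs per 10000 in Gpnmb hexagons of AAA mice 1, 2 and 3, 236, 231 and 253 in Ctsb or Lyz2 hexagons and 195, 193 and 209 in the rest. The levels of Gpnmb hexagons and the rest did not overlap. Lysosomal members that did not pass included Lamp1, a membrane protein of lysosomes, with log2 fold changes of -0.07 (SE 0.18) and -0.46 (SE 0.20) in the 2 comparisons, and Grn, the progranulin gene, with 0.31 (SE 0.17) against hexagons with none of the 3.

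The macrophage identity list of 24 genes summed to 28.8, 51.3 and 31.9 UMIs per 10000 in Gpnmb hexagons, against 19.3, 20.4 and 22.8 in hexagons with none of the 3. Only Lgals3 and Cd5l of the list had counts high enough for the test, and both were higher in that comparison. Both passed the filter on low counts only through the Gpnmb libraries, so their calls are no separate support. Subunits of the proton pump that acidifies lysosomes differed in summed level by 0.52 ± 0.46 (SD, n = 3) on the log2 scale. Atp6v0c, one of its membrane subunits, had a log2 fold change of 0.51 (SE 0.19, adjusted p = 0.170), and 0 of the 2 tested subunits passed.

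Of the 20 lipid-handling genes 8 were tested, and Fabp5 alone was higher against hexagons with none of the 3. Trem2, a lipid-sensing receptor of macrophages, had a log2 fold change of 1.32 (SE 0.43, adjusted p = 0.0787), on 29 UMIs in Gpnmb hexagons, and Spp1, osteopontin, one of 0.11 (SE 0.34). Trem2 was called by DESeq2, over whole genes and without AAA mouse 3, and it too passed the filter on low counts only through the Gpnmb libraries. The summed list differed by 0.08 ± 0.12 (SD, n = 3). Of the 11 genes of iron handling 3 were tested, with Ftl1 higher, and Fth1, the ferritin heavy chain, had 0.43 (SE 0.14, adjusted p = 0.0800). Of the 16 complement genes 8 were tested and C1qc was higher, while C1qa and C1qb had 0.42 (SE 0.29) and 0.59 (SE 0.29), and the list's sum differed by 0.03 ± 0.13.

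Few genes of antigen presentation could be tested. The 4 tested genes of MHC class II had a median log2 fold change of 0.01 against hexagons with none of the 3 and -0.47 against Ctsb or Lyz2 hexagons, with 0 genes called in either, beside 2.53% and 0.633% of all genes tested. Of MHC class I 4 genes were tested and 0 called, and the summed level differed by 0.01 ± 0.18 and 0.01 ± 0.08 in the 2 comparisons. Among 25 chemokines and cytokines only Cxcl12 could be tested, with -0.44 against hexagons with none of the 3, and it was not called.

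Receptors and sheddases of Gpnmb were at the limit of this depth. Of their 13 genes only the integrin gene Itgb1 was tested, with a log2 fold change of -0.09 against hexagons with none of the 3. In all Gpnmb hexagons Cd44, the hyaluronan receptor, had 4 UMIs, Adam10, the sheddase, 4, Egfr 2 and Kdr 1. Of 16 matrix proteases and inhibitors 2 were tested and 0 called, and Mmp9 had 1 UMI. Mmp2, which was tested, had 18 UMIs. Its log2 fold change against Ctsb or Lyz2 hexagons was -0.20 (SE 0.44, adjusted p = 0.893 by edgeR). For the genes of both lists that were not tested, a difference was not detectable at this depth.

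Among the contractile, elastic fiber and collagen genes of the wall Eln was the 1 called gene, a count to be read beside the 2.53% of all genes called. The 20 contractile genes of smooth muscle, 11 of them tested and 0 called in either comparison, had summed levels of 133, 168 and 217 in Gpnmb hexagons and 156, 140 and 197 in hexagons with none of the 3. Acta2, smooth muscle actin, had a log2 fold change of 0.09 (SE 0.12), and Tagln, transgelin, one of 0.13 (SE 0.15). Of the elastic fiber list 7 of 15 genes were tested, and Eln alone was called. The median of the 7 was -0.06, so the sum of the list, which differed by 0.22 ± 0.10, followed Eln. Of 19 collagen and matrix genes 12 were tested and 0 called, with a summed difference of -0.02 ± 0.07, and Col3a1, the type III collagen gene, had -0.32 (SE 0.12, adjusted p = 0.175).

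Adipocyte genes had lower values in Gpnmb hexagons, and none passed the test. The 10 adipocyte genes differed in summed level by -0.32 ± 0.28, and of the 5 tested 0 were called. Fabp4, the fatty acid carrier of adipocytes, had a log2 fold change of -0.66 (SE 0.21, adjusted p = 0.0750), lower in 3 of 3 mice, and Cfd, adipsin, one of -0.36 (SE 0.13, adjusted p = 0.165). The remaining lists held 0 called genes, and their sums differed from hexagons with none of the 3 by 0.10 ± 0.25 for endothelium, 0.13 ± 0.26 for lymphocytes, -0.25 ± 0.44 for erythrocytes, -0.10 ± 0.05 for the respiratory chain and -0.03 ± 0.03 for the 82 ribosomal protein genes. The osteoclast list differed by -0.00068 ± 1.27, and the neutrophil list had UMIs in the Gpnmb hexagons of AAA mouse 1 alone.

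**Figure D3:**
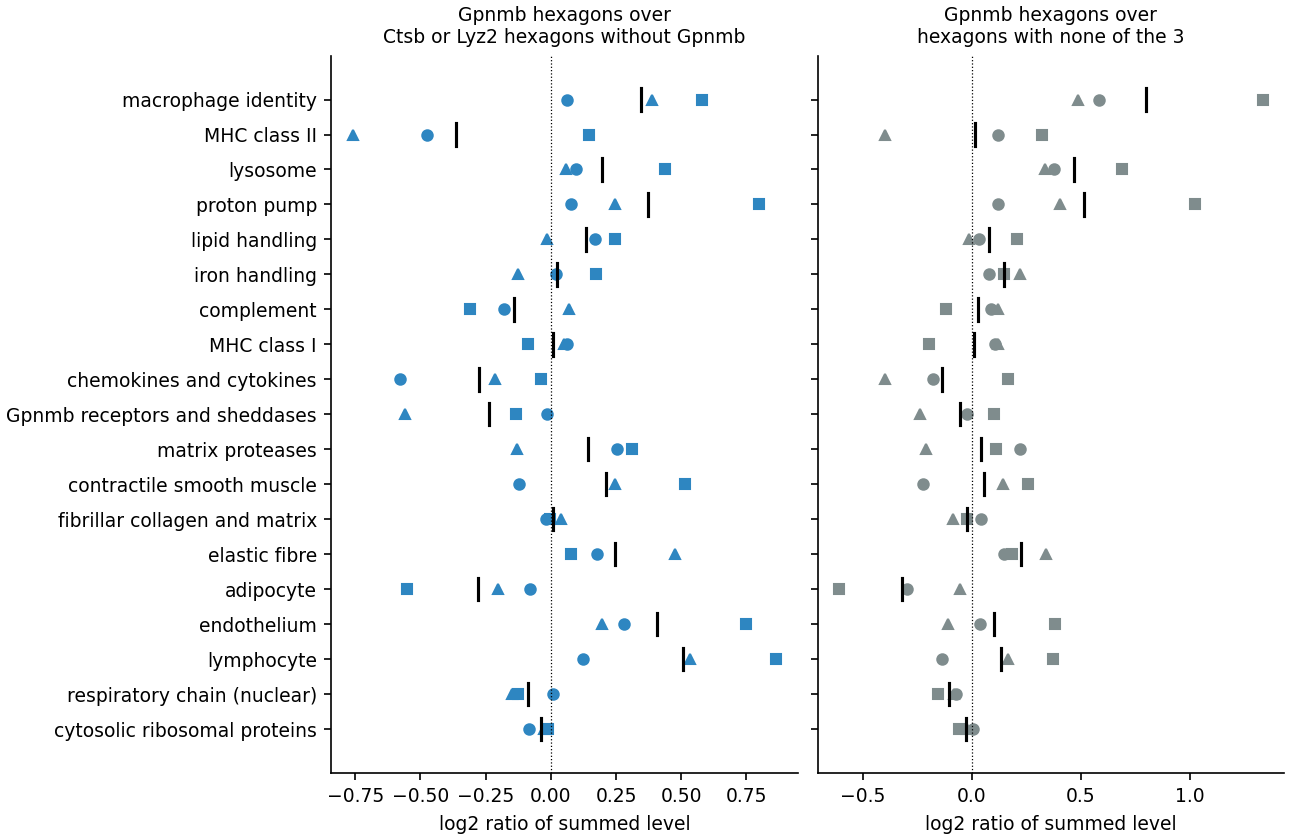
Log2 ratio of the summed level of each gene list in Gpnmb hexagons over Ctsb or Lyz2 hexagons (left) and over hexagons with none of the 3 (right), for AAA mouse 1 (circle), 2 (square) and 3 (triangle), with the mean of the 3 mice as a bar. The macrophage and lysosome lists lie above 0 in all 3 mice in each panel, and the adipocyte list below 0.

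The Gpnmb hexagons were also described by their own Gpnmb count and grouping, with no test, since both come from the values that chose them. The 40 lysosomal genes summed to 388, 436 and 362 UMIs per 10000 in members with 2 or more Gpnmb UMIs (34, 41 and 38 hexagons) and 231, 268 and 235 in members with 1. The difference was 0.69 ± 0.06 on the log2 scale (SD, n = 3). The depth of the 2 sets of hexagons was not compared. Lipid-handling genes were at 135, 163 and 111 against 90.7, 96.3 and 87.2, a difference of 0.56 ± 0.21. Macrophage identity genes were higher in AAA mice 1 and 2 and lower in mouse 3, with a mean difference of 0.58 ± 1.18. Contractile genes differed by 0.02 ± 0.23.

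Members in groups had higher lysosomal values than lone members in 3 of 3 mice. In groups of 3 or more the lysosomal genes summed to 333, 332 and 304 UMIs per 10000, and in members with no other within 45 μm to 198, 207 and 213. The difference was 0.65 ± 0.12, and macrophage identity genes differed by 0.97 ± 0.51. Grouping rests on Gpnmb itself, so these values are a description too. Collagen and matrix genes were higher in groups by 0.33 ± 0.14, while contractile genes differed by -0.06 ± 0.12. In hexagons with none of the 3 the lysosomal level ranged from 193 to 209. Members that stood alone lay within that range in AAA mice 1 and 2, and at 213 in mouse 3. The part of spread RNA in the lone members was not tested.

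**Figure D4:**
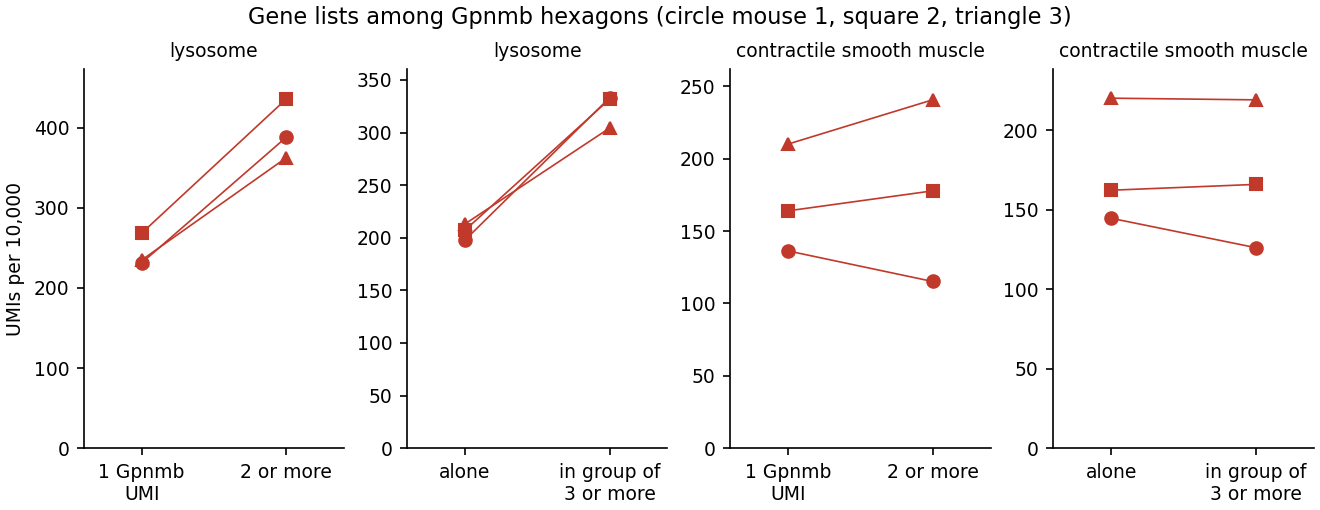
Summed level (UMIs per 10000) of the lysosome and contractile lists in Gpnmb hexagons with 1 or with 2 or more Gpnmb UMIs, and in those alone or in groups of 3 or more within 45 μm, for each AAA mouse. The lysosome list was higher in the right-hand group of each panel in 3 of 3 mice, and the contractile list was not higher in all 3 mice of either split. Both splits use the Gpnmb values that chose the hexagons, so the levels are a description.

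The study asked how macrophages with Gpnmb lie in relation to smooth muscle cells, so contractile RNA was measured around the Gpnmb hexagons. Contractile markers made up 0.880%, 0.909% and 1.44% of UMIs in kept hexagons within 45 μm of Gpnmb hexagons in AAA mice 1, 2 and 3, the member itself left out. Around Ctsb or Lyz2 hexagons they made up 0.841%, 0.765% and 1.25%, and around hexagons with none of the 3 0.933%, 0.755% and 1.35%. The mean difference was 0.122 ± 0.0745 percentage points (SD, n = 3) against Ctsb or Lyz2 hexagons, with Gpnmb hexagons higher in 3 of 3 mice (exact two-sided sign-flip permutation p = 0.25, the smallest possible). It was 0.0625 ± 0.106 against hexagons with none of the 3, higher in 2 of 3 mice (exact permutation p = 0.5). The first difference was larger than its SD over mice and the second smaller, and with 3 pairs neither test can pass 0.05.

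A hexagon with 3 or more contractile marker UMIs lay within 45 μm of 50.2%, 50.7% and 55.7% of Gpnmb hexagons. The shares were 48.1%, 41.4% and 47.1% for Ctsb or Lyz2 hexagons and 46.5%, 37.1% and 46.8% for hexagons with none of the 3. Gpnmb hexagons had the higher share in 3 of 3 mice in each comparison (exact permutation p = 0.25), by 6.65 ± 3.99 and 8.72 ± 4.93 percentage points. The median number of kept hexagons within 45 μm was 12, 8.5 and 10 for Gpnmb hexagons and 11, 11 and 9 for hexagons with none of the 3.

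In hexagons without Gpnmb, those within 45 μm of a Gpnmb hexagon were compared with those farther away. Of 2170 genes 0 were higher and 1 was lower near Gpnmb hexagons (percent called 0.0461) in edgeR, 0 of either in DESeq2, and 113 passed an unadjusted p of 0.05 (5.21% of those tested). The 1 gene was Cfd, outside the rule for named genes because its direction was not alike in all mice. It was at 42.3, 32.6 and 37.1 UMIs per 10000 near and 61.1, 47.6 and 32.2 far in AAA mice 1, 2 and 3, with a log2 fold change of -0.36 (SE 0.06, adjusted p = 2.41e-05). Near values were lower in mice 1 and 2 and higher in mouse 3, and without mouse 1 or mouse 2 the call was lost, with adjusted p up to 0.995.

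Of the 12 genes higher in Gpnmb hexagons, none was called in their surroundings at 45 μm over exonic UMIs, but some were in other settings. At 25 μm Psap was called, with a log2 fold change of 0.40 (adjusted p = 8.05e-05), and over whole genes Psap (0.34), Ctsd (0.37) and Lgals3 were, beside Acta2 and Actb. In the setting used here Psap had a log2 fold change of 0.20 (SE 0.07, adjusted p = 0.439) near against far and was higher in 3 of 3 mice, and Ctsd one of 0.23 (SE 0.08, adjusted p = 0.608). Acta2 had 0.12 (SE 0.06) and Eln 0.15 (SE 0.10), both higher in 3 of 3 mice and not called. Of 30 tested lysosomal genes 24 had a log2 fold change above 0, and the share of all genes above 0 was not counted. Their median was 0.14 beside 0.01 over all genes. The 9 tested adipocyte genes had a median of -0.36, with Cfd the only one called.

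Gpnmb was then compared between AAA and control mice, since the rule used AAA sections alone. Gpnmb was held by 4.64%, 7.70% and 6.82% of kept hexagons in AAA mice 1, 2 and 3 and by 2.12%, 3.30% and 2.57% in control mice 1, 2 and 3. The exact 95% intervals ran from 4.10% to 8.97% over the AAA mice and from 1.16% to 5.58% over the control mice, which had 14, 13 and 11 such hexagons. The means were 6.39% ± 1.58 and 2.66% ± 0.595 (SD, n = 3 each), a difference of 3.72 percentage points, with no overlap between the conditions. The exact two-sided permutation test gave p = 0.1, the smallest value for 3 against 3 mice. The paper states that the aortas of AAA and control mice were embedded in pairs. The test took the mice as unpaired, and an exact sign-flip test of 3 pairs could not give p under 0.25.

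Per 10000 UMIs, Gpnmb was at 5.78, 11.5 and 10.7 in AAA and 2.52, 4.26 and 3.89 in control mice, 2.62-fold higher on average (p = 0.1 by the same exact test). Thinned to 60 UMIs per hexagon, the shares were 3.19%, 5.68% and 5.22% in AAA and 1.89%, 2.28% and 1.83% in control mice, also without overlap, after 924, 338 and 551 AAA and 98, 99 and 108 control hexagons with fewer UMIs were left out. Adipocyte-rich hexagons were at 2.84 per 10000 in AAA, and in controls 0 of 70 held Gpnmb, which allows a share of up to 5.13% (exact 95% interval). Control hexagons with 3 or more contractile marker UMIs were at 3.90. Single sections ranged from 2.98% to 11% in AAA and from 0% to 4.28% in controls, where 1 section held 0 Gpnmb UMIs in 68 hexagons, so sections of the 2 conditions overlapped where mice did not.

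**Figure D5:**
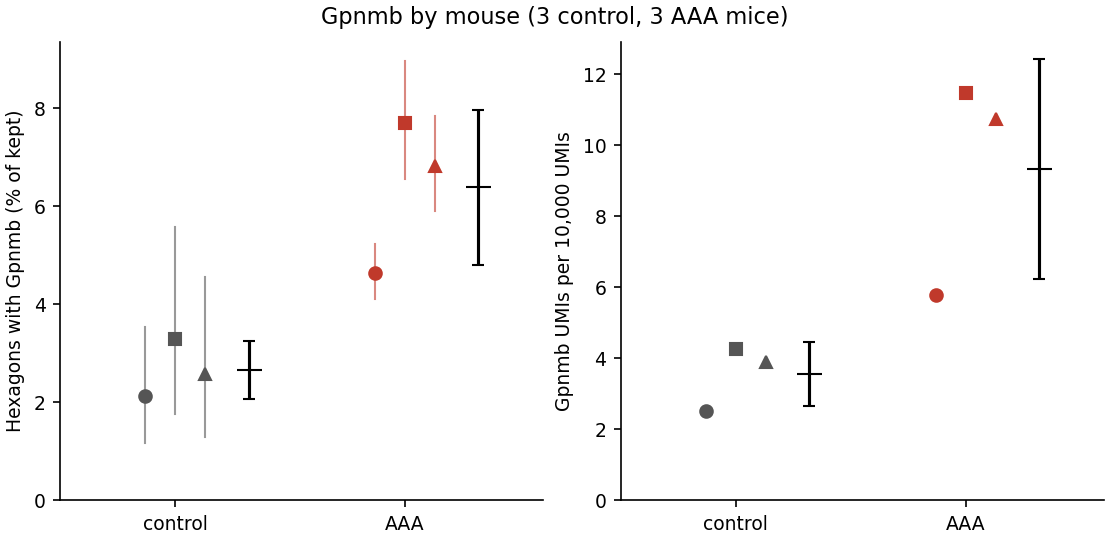
Share of kept hexagons with Gpnmb (left, %, thin lines are exact 95% binomial intervals) and Gpnmb UMIs per 10000 UMIs (right) in each of 3 control and 3 AAA mice, with the mean and SD of the mice in black. The 3 AAA mice lie above the 3 control mice in each panel, and AAA mouse 1 is the lowest of the AAA mice.

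Gpnmb hexagons of control mice did not show the lysosomal level of those in AAA. The 40 lysosomal genes summed to 128, 163 and 121 UMIs per 10000 in the Gpnmb hexagons of control mice 1, 2 and 3 and to 149, 137 and 149 in their hexagons with none of the 3. Contractile genes summed to 488, 299 and 484 against 336, 310 and 401. With 925 to 1185 UMIs per control mouse in these hexagons the values are imprecise, and the difference between conditions was not tested.

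As context for the genes that moved with Gpnmb, their promoters were searched for CACGTG, the core letters of the sites bound by MITF and TFE proteins, which control lysosomal genes. Of the 12 called genes and Gpnmb, 11 had a promoter in the RefSeq table (GRCm38.p6, 250 bases before to 50 after the start), and 2 of them, Ctsd and Ctsl, held the letters, which read the same on both strands. Of all 32851 promoters 7.15% held them. The windows are shown because these genes were higher in Gpnmb hexagons, with CACGTG in capitals, 5′ to 3′ on the minus strand of the gene.
Ctsd, chr7:142387908-142387937: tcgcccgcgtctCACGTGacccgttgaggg
Ctsd, chr7:142388055-142388077: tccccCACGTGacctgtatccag
Ctsl, chr13:64370739-64370768: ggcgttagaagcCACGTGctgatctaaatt
The matches are letters in these windows and not measured sites.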

How the data were processed

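The authors made the deposited UMI counts with STtools and STARsolo 2.7.5c on mm10 and did not normalize them. One matrix of 32285 genes and 9837644 barcodes holds all sections, with exonic counts (used here) and counts over whole genes (an alternative). Lane 2 gave 4207122 exonic UMIs, of which 2920323 lay in the sections. Hexagons followed the study's 12 μm sides with a minimum of 50 genes in place of the study's 75. The distance of 45 μm is the study's threshold for cell pairs. The mouse is the replicate. Hexagon UMIs were summed per mouse and class (15210 to 406024 UMIs) and tested with edgeR 4.0.16 in R 4.3.3 (TMM, filterByExpr, quasi-likelihood test, mouse block, Benjamini-Hochberg adjustment over all genes tested). SEs are the log2 fold change over the square root of the test's F. The classes pair because they come from the same mice, and the deviations of the Gpnmb and other classes of a mouse correlated at 0.043 to 0.25. The edgeR p-values rest on counts summed in 3 mice and on a spread estimated largely over all genes together. That spread was small (common dispersion 0.0032 for the hexagon classes and 0.0019 for near against far), so SEs and p-values lie close to counting error. They do not measure the spread of a single gene over mice, for which the values per mouse are given. DESeq2 1.42.0 and the other settings of the closing section were alternatives, and the code was checked on simulated data. Named genes were called genes alike in all 3 mice, up to 5 of the most abundant genes of each list, and genes the study names. The hexagons, lists and tests were chosen with earlier results of these data known. Intervals cover counting error only.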

Additional observations from a re-analysis of the deposited data

How the results depend on the processing

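Directions of the AAA against control share (difference 3.07 to 4.60 percentage points without each mouse in turn) and of the contractile share around Gpnmb hexagons were kept under each alternative. Against Ctsb or Lyz2 hexagons, 3 genes were higher in Gpnmb hexagons and 0 lower. The higher count was 1 to 2 without each mouse, 5 on the shifted grid, 5 for members with 2 or more Gpnmb UMIs, 0 with no filter on low counts and 0 without the mouse as replicate block. The lower count was 1 at 75 or more genes, 3 on the shifted grid and 4 with no filter. Against hexagons with none of the 3, 12 genes were higher and 0 lower. The higher count was 5 to 8 without each mouse, 6 at 75 or more genes, 19 over whole genes, 1 with no filter and 4 without the replicate block. The lower count was 4 over whole genes, 3 on the shifted grid, 2 in hexagons with 60 to 150 UMIs, 5 for members with 2 or more Gpnmb UMIs and 70 with no filter, which tested 19086 genes and moved the median fold change over all genes (log2) to -1.06, and to -0.21 in the other comparison. Near Gpnmb hexagons, 0 genes were higher and 1 lower. The higher count was 5 over whole genes and 2 at 25 μm. The lower count was 2 at 25 μm, 0 at 75 or more genes, 0 in hexagons with 60 to 150 UMIs, 0 with DESeq2, 0 without the replicate block and 0 to 1 without each mouse. Of the named genes, Ctsz reversed against Ctsb or Lyz2 hexagons to -0.35 for members with 2 or more Gpnmb UMIs, and Cfd near Gpnmb hexagons to 0.0047 at 75 or more genes. The cause of these changes was not tested. The shallowest library held 15210 UMIs over all genes and 6331 over the 474 genes tested, which limits what can be seen in genes of low count. Against hexagons with none of the 3, the tested genes held 40.5% to 42.6% of the UMIs of a library.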
